A study of Mus musculus with 12 samples.

Results

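The genes described here are 46 genes of the lysosome and of autophagy, taken by symbol from a list of cathepsins, glycosidases, lipid enzymes, membrane proteins, proton pump subunits, TFEB family factors and autophagy proteins. All 46 are in the table, which holds 19037 genes, and 45 had enough counts to be tested. Total RNA was sequenced from AML12 cells, a line of mouse hepatocytes started from the liver of a mouse carrying a TGF-alpha transgene, in 12 libraries that form 4 groups of 3. FK228+YF cells received FK228 (romidepsin, an inhibitor of class I histone deacetylases, called HDI in the labels) and overexpressed YF mutants of these enzymes. FK228 cells received the inhibitor, YF cells overexpressed the mutants, and control cells had neither, although the descriptions of the FK228 and control libraries carry a GFP code that is not explained. The labels name no dose, time or number of cultures, nor which enzymes were mutated, so p-values measure the spread between libraries, which may be technical.

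Lysosomes are acidified by a proton pump, the V-ATPase, and degrade proteins, glycans and lipids with enzymes that work at low pH. Autophagy delivers cytoplasm to them inside vesicles coated with LC3 and GABARAP proteins, and in hepatocytes it turns over organelles, glycogen and lipid droplets. The related factors TFEB, TFE3 and MITF bind a promoter element known as CLEAR, which contains the E-box CACGTG, and drive many genes of both systems.

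Libraries held 23664446 to 26122998 estimated counts, and members took 1.41% to 1.45% of them in FK228+YF cells, 1.28% to 1.36% in FK228 cells, 0.846% to 0.920% in YF cells and 0.794% to 0.867% in control cells. Hdac1, a class I deacetylase gene, stood at 795 to 799 CPM (a library's counts scaled to a common total, with TMM factors) in FK228+YF cells, 107 to 113 CPM in FK228 cells, 382 to 419 CPM in YF cells and 91.8 to 101 CPM in control cells. Hdac8 averaged 38.7 CPM in FK228+YF cells, 16.5 CPM in FK228 cells, 42.1 CPM in YF cells and 17.9 CPM in control cells. Hdac2 averaged 177, 149, 189 and 176 CPM in the same 4 groups, and Hdac3 144, 113, 113 and 105 CPM. The hepatocyte label was checked with 8 marker genes. Albumin (Alb) was near 0, averaging at most 0.256 CPM in any group. In control cells Cps1 averaged 0.0777 CPM, Apoa1 1.43 CPM, Ttr 9.03 CPM and Ass1 11.8 CPM, while Hnf4a, Apob and Trf averaged 177, 429 and 519 CPM. Of the 8 defining genes, most were thus low or near 0. The summed level of the hepatocyte markers was 567 to 603 CPM in FK228+YF cells, 624 to 733 CPM in FK228 cells, 1163 to 1239 CPM in YF cells and 1110 to 1199 CPM in control cells. It thus moved opposite to most members in the FK228 groups. Of the 8 markers, 2 rose and 5 fell against control in FK228+YF cells and likewise in FK228 cells, and 2 rose and 3 fell in YF cells. Over all tested genes, 38.8% rose and 38.6% fell in FK228+YF cells, 33.2% and 35.5% in FK228 cells, and 18% and 14.6% in YF cells. The part of the marker shifts in the results on members was not tested. In such bulk RNA, fewer cells of a type and less RNA per cell cannot be told apart.

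Promoters of 40 of the 46 members were matched in RefSeq (GRCm38.p6), as 250 bases before to 50 after a start site. Several members had more than 1 such window, and for every gene a match in any window was counted. Some windows lie inside the gene's annotated span. These include that of Atg7 (chr6:114670846-114671145, gene from 114643127) and the only matching window of Ctsa (chr2:164833523-164833822, gene from 164832872). The set below shows promoters with 1 or more E-boxes from 4 roles (Lamp1 and Mcoln1 are both membrane proteins), and that of Gusb, the member that fell most in FK228 cells, which has none. Each is written 5′ to 3′ on the gene's strand, in lower case, with every CACGTG in capitals.
Lamp1, chr8:13158911-13159210, plus strand: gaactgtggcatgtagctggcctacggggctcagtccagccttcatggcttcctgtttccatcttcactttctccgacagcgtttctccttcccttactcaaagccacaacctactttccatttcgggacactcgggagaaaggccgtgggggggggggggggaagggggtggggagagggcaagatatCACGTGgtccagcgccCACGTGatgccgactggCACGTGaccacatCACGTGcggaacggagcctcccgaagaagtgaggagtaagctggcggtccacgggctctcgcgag
Mcoln1, chr8:3500269-3500568, plus strand: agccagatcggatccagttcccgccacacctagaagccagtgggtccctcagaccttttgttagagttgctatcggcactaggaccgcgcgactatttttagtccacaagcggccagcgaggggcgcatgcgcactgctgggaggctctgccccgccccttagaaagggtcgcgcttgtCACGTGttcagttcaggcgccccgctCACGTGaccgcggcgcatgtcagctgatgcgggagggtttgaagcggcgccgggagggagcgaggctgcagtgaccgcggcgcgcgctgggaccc
Atp6v0d1, chr8:105566015-105566314, minus strand: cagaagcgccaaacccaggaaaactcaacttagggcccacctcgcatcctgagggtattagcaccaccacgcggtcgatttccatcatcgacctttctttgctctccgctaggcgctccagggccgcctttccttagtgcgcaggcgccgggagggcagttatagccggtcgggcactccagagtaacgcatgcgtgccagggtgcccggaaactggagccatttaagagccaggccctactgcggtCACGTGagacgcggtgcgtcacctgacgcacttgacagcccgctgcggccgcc
Sgsh, chr11:119355461-119355760, minus strand: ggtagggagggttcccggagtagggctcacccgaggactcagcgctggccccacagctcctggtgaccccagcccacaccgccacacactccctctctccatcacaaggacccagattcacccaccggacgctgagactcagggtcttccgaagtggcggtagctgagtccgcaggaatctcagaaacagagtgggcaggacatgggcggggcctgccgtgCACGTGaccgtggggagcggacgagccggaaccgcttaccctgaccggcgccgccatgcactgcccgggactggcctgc
Ctsl, chr13:64370471-64370770, minus strand: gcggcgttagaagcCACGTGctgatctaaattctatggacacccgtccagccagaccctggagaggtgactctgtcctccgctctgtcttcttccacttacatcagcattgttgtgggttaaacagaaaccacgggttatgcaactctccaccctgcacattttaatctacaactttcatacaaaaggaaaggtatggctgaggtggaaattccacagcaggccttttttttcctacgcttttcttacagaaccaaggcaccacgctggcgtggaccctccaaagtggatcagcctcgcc
Gusb, chr5:130003000-130003299, minus strand: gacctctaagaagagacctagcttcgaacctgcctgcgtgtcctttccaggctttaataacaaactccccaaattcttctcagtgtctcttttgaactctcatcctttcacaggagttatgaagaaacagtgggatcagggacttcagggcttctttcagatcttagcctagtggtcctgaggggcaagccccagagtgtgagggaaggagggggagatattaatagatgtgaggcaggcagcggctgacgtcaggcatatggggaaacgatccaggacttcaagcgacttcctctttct

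The letters CACGTG, searched on both strands, were in the promoters of 15 of 40 members (37.5%), of 1202 of 10651 tested genes with a promoter (11.3%) and of 8.09% of all 27025 genes with one. The longer motif TCACGTG, also searched on both strands and always overlapping the shorter one, was in 12 of 40 members (30%) and in 6.77% of the tested genes. By role, CACGTG was in 5 of 8 promoters of glycan-degrading enzymes, 4 of 7 of cathepsins, 2 of 4 of membrane proteins, 2 of 3 of pump subunits and 2 of 5 of initiation and conjugation genes. It was in none of the promoters of Tpp1 and Ppt1, lipid enzymes, TFEB family factors, or LC3 and GABARAP proteins and their receptor. Of members that rose in FK228 cells versus control, 13 of 29 held it (44.8%), against 2 of 11 of the others. Over all tested genes, 11.1% of those that rose held it, against 11.4% of those that did not. A match describes the letters in this window, not a bound site. Ctsb, Ctsh, Asah1, Atp6v1h, Map1lc3a and Becn1 are not in these counts.

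**Figure D1:**
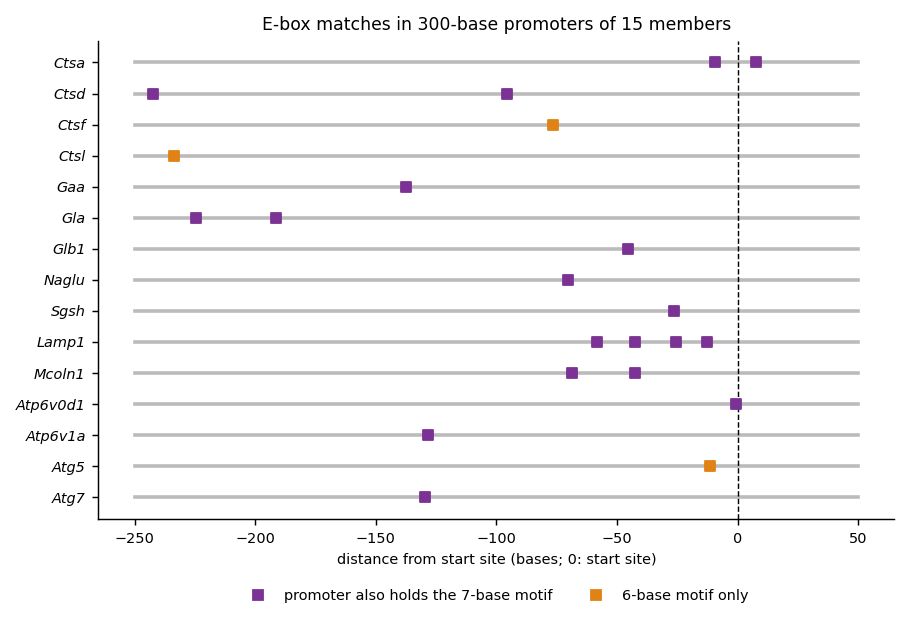
Positions of CACGTG in the 300-base promoters of the 15 members that hold it, as distance from the start site in bases; purple marks promoters that also hold TCACGTG and orange those that do not. Lamp1 has 4 matches, and the 1 match of Ctsl lies at -236. The start site used for Ctsl is inside the gene's span (chr13:64361890-64370772), as is its whole window.

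Most members stood higher in FK228 cells than in control cells, and adding YF kept them there. Summed over the 46 members, the level was 14063, 14147 and 14388 CPM in FK228+YF cells, 13621, 13530 and 13815 CPM in FK228 cells, 8808, 8276 and 8643 CPM in YF cells, and 7901, 8660 and 8267 CPM in control cells. The first 2 groups did not overlap the last 2, which overlapped each other. Relative to the control mean, the sum was 1.72 in FK228+YF cells, 1.65 in FK228 cells and 1.04 in YF cells.

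In FK228 versus control, 33 of 45 tested members rose and 4 fell by edgeR's quasi-likelihood test (adjusted p below 0.05 over 13346 genes). Over all tested genes 33.2% rose and 35.5% fell, so the members' share that rose was above this background and the share that fell below it. Members were chosen with earlier results of these data known, so this comparison is descriptive. The 4 falls were 2 without FK228 replicate 2. The median log2 fold change was 0.60 over members and -0.02 over all tested genes. Of the 45 tested members, 8 were called at least 2-fold higher, against 11.1% of all tested genes. Among those that rose, it was 8 of 33 members, beside 1475 of 4437 tested genes, of which the second is the larger share. In FK228+YF versus control, 37 members rose and 3 fell, beside 38.8% and 38.6% of all tested genes, with a member median of 0.71. There, 12 of the 45 tested members were at least 2-fold higher, against 15.1% of all tested genes. Among those that rose, it was 12 of 37 members, beside 2018 of 5172 tested genes, again the larger share. In YF versus control, 18 members rose and 2 fell, beside 18% and 14.6% of all tested genes, with a median of 0.11. The falls in YF cells numbered 0 without any 1 of control replicates 2 and 3 and YF replicates 2 and 3, and 1 without YF replicate 1. These 3 comparisons share the control libraries.

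**Figure D2:**
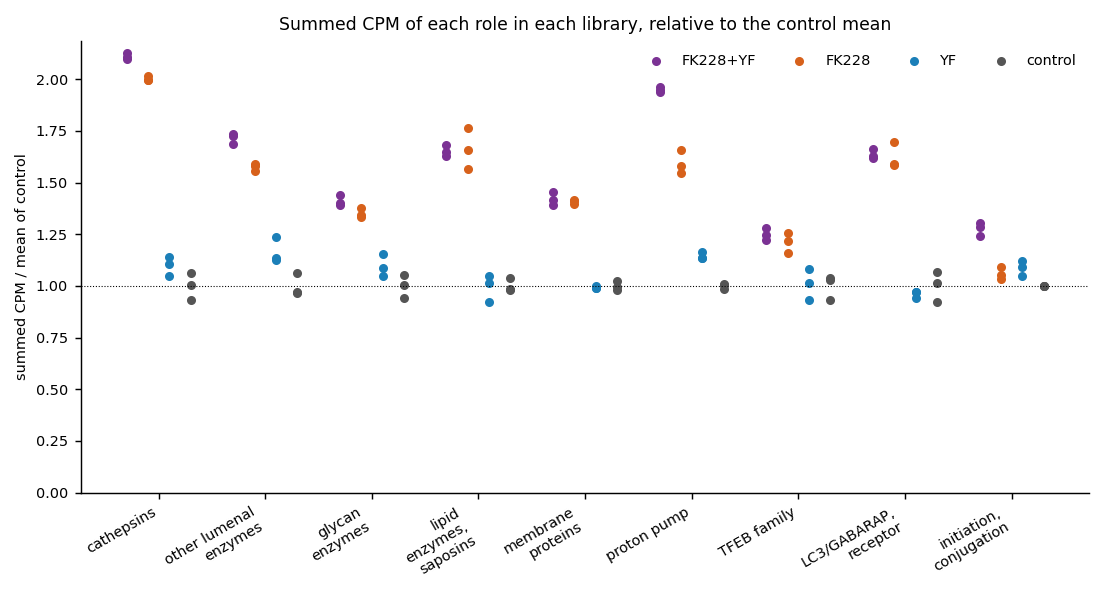
Summed CPM of each role in each library (points), divided by the mean of the 3 control libraries; groups run from FK228+YF on the left to control on the right within each role. Cathepsins stand near 2 in both FK228 groups, and the proton pump is higher in FK228+YF cells (mean 1.95) than in FK228 cells (mean 1.60).

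Cathepsins, the proteases of the lysosome, were among the most abundant members. Their summed level was 4905 to 4970 CPM in FK228+YF cells, 4669 to 4718 CPM in FK228 cells, 2453 to 2663 CPM in YF cells and 2183 to 2485 CPM in control cells. Of 8 tested, 7 rose and none fell in FK228 versus control, 7 rose in FK228+YF versus control and 2 rose in YF versus control. The 7 in FK228 cells include Ctsh (0.26 ± 0.11, adjusted p = 0.0474, edgeR), with overlapping groups, whose call ended without any 1 of control replicates 1 and 3, FK228 replicates 2 and 3 and YF replicate 3 (0.18 to 0.28). The 7 in FK228+YF cells include Ctsk in its place (0.99 ± 0.45, adjusted p = 0.0492, edgeR), whose call ended without any 1 library other than control replicate 1 (0.79 to 1.03), and was not made by DESeq2 (1.03). Over all alternatives, settings and libraries, the Ctsk call was lost in 15 and kept in 3. Ctsl (chr13:64361890-64370772), which encodes the endopeptidase cathepsin L and whose promoter is printed above, had 1269.7, 1357 and 1374 CPM in FK228+YF cells, 1101, 1027 and 1012 CPM in FK228 cells, 329, 323 and 338 CPM in YF cells, and 248, 255 and 239 CPM in control cells. No groups overlapped, and every step of that order passed the test. Its log2 fold change was 2.08 ± 0.06 (SE) in FK228 versus control, a 4.23-fold level (adjusted p = 1.59e-16, edgeR), the largest rise of any member there. It was 2.43 ± 0.06 in FK228+YF versus control and 0.41 ± 0.06 in YF versus control (edgeR adjusted p = 3.69e-18 and 2.29e-05). Ctsd (chr7:142375910-142387827), which encodes the aspartic protease cathepsin D, had 1891, 1877 and 1901 CPM in FK228+YF cells, 1909, 1973 and 2012 CPM in FK228 cells, 1006, 926 and 960.1 CPM in YF cells, and 838, 939 and 906 CPM in control cells. The FK228 groups were both far above the others, at log2 fold changes of 1.08 ± 0.06 with YF and 1.14 ± 0.06 without, against control. Ctsb, the gene of cathepsin B, had 703, 689 and 728 CPM in FK228+YF cells, 676, 717 and 719 CPM in FK228 cells, 452, 398 and 439 CPM in YF cells, and 398, 472 and 421 CPM in control cells. It rose by 0.72 ± 0.07 in FK228+YF cells and 0.71 ± 0.07 in FK228 cells, and stood at -0.00 ± 0.07 in YF cells (adjusted p = 0.985). Its exons overlap 774 bases of Fdft1 on the other strand, and whether strand was used in counting is not stated. Ctsl shares 395 exon bases with the pseudogene Gm49230 on its own strand and 1742 with Gm47123 on the other. Ctsd shares 808 with Gm49369 on its own strand. These partners of Ctsl and Ctsd have no counts of their own.

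On the TPM scale, which also corrects for transcript length, Ctsd averaged 1219.8 ± 19.6 TPM in FK228+YF cells, 1224 ± 129 in FK228 cells, 679 ± 46.6 in YF cells and 595 ± 36.5 in control cells (SD, n = 3). Ctsl averaged 991 ± 57.6 TPM in FK228+YF cells, 750.0 ± 31.9 in FK228 cells, 267 ± 11.9 in YF cells and 190.2 ± 11.3 in control cells. In control cells it thus stood below Ctsb (297 ± 33.3 TPM), and in FK228+YF cells above it (451 ± 8.43 TPM). Ctsz, a carboxypeptidase gene, had 694, 613 and 597 CPM in FK228+YF cells, 661, 604 and 617 CPM in FK228 cells, 594, 566 and 582 CPM in YF cells, and 468, 545 and 518 CPM in control cells. The first 2 groups overlapped, and the control libraries were lowest, with log2 fold changes against control of 0.32 ± 0.07, 0.30 ± 0.07 and 0.19 ± 0.07 in FK228+YF, FK228 and YF cells. The YF call (adjusted p = 0.0431, edgeR) ended without any 1 of control replicates 1 and 3, YF replicates 1, 2 and 3, FK228 replicate 2 and FK228+YF replicate 2 (0.13 to 0.21). Ctsa (0.44 ± 0.06) and Ctsf (0.55 ± 0.11) also rose in FK228 cells. Ctsk was at 0.485 CPM or less in every library, and Ctss was at 0 in every library but 1 FK228+YF library, at 0.0839 CPM, so it was not tested. These cysteine proteases are characteristic of osteoclasts and of antigen-presenting cells.

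Tpp1 and Ppt1 encode a tripeptidyl peptidase and a palmitoyl thioesterase, whose loss causes neuronal storage disease. Ppt1 (chr4:122836077-122859175) had 53.2, 52.6 and 51.6 CPM in FK228+YF cells, 40.6, 36.7 and 38.2 CPM in FK228 cells, 28.1, 29.2 and 29.7 CPM in YF cells, and 23.9, 23.5 and 22.3 CPM in control cells. No groups overlapped, and its log2 fold change against control was 1.18 ± 0.06, 0.73 ± 0.07 and 0.32 ± 0.07 in FK228+YF, FK228 and YF cells (edgeR adjusted p = 4.75e-13, 2.82e-09 and 0.00077). Its exons share 129 bases with Cap1 on the other strand, which had 67184 counts in all beside 10690 of Ppt1. Tpp1 had 158, 153 and 159 CPM in FK228+YF cells, 153, 153 and 155 CPM in FK228 cells, 123, 108 and 108 CPM in YF cells, and 94.7, 106 and 95.4 CPM in control cells. The FK228 groups overlapped each other and lay above the rest (0.67 ± 0.06 and 0.64 ± 0.06 against control). The smaller rise in YF cells (0.20 ± 0.06, adjusted p = 0.0162, edgeR) was no longer called without control replicate 3 (0.17) or YF replicate 1 (0.13).

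The 8 glycan-degrading enzymes included the strongest fall as well as several rises. Of these, 6 rose and 1 fell in FK228 versus control, 5 rose and 1 fell in FK228+YF versus control, and 4 rose in YF versus control. Gusb (chr5:129989011-130003049), which encodes beta-glucuronidase, an enzyme of glycosaminoglycan breakdown, had 16.7, 13 and 13.1 CPM in FK228+YF cells, 12.2, 13.4 and 14.6 CPM in FK228 cells, 41.5, 42.6 and 43.8 CPM in YF cells, and 37.5, 38.1 and 38.2 CPM in control cells. Both FK228 groups lay far below the others. Gusb fell by 1.51 on the log2 scale in FK228 cells (SE 0.09, adjusted p = 4.48e-12, edgeR) and by 1.41 in FK228+YF cells (SE 0.09), and in YF cells it stood at 0.17 ± 0.08 (adjusted p = 0.123). No other member fell to less than 0.5 of its control level. Neu1 (chr17:34931253-34937297), a sialidase gene, had 108, 109 and 104 CPM in FK228+YF cells, 90.5, 83.6 and 83.1 CPM in FK228 cells, 55.8, 52.5 and 50.4 CPM in YF cells, and 40.2, 40.8 and 43.9 CPM in control cells. The 4 groups did not overlap, with log2 fold changes of 1.36 ± 0.06, 1.04 ± 0.06 and 0.35 ± 0.06 in FK228+YF, FK228 and YF cells. Sgsh (chr11:119343489-119355510), the sulfamidase of heparan sulfate breakdown, had 27.6, 28.8 and 29.3 CPM in FK228+YF cells, 23.1, 24.1 and 26.7 CPM in FK228 cells, 19.4, 17 and 15.8 CPM in YF cells, and 11.7, 10.7 and 10.4 CPM in control cells. It rose by 1.39 ± 0.09, 1.17 ± 0.09 and 0.67 ± 0.09 in FK228+YF, FK228 and YF cells. Card14, which overlaps 955 exon bases of Sgsh on the other strand and had 126 counts in all beside 6079 of Sgsh, rose by 2.70 in FK228 cells.

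Gaa, which encodes the acid glucosidase of glycogen, rose by 0.84 ± 0.07 in FK228+YF cells and 0.69 ± 0.07 in FK228 cells. In YF cells (0.18 ± 0.07, adjusted p = 0.0484, edgeR) its call ended without any 1 of control replicates 1 and 3, YF replicates 1 and 3, FK228 replicates 1 and 2 and FK228+YF replicates 2 and 3 (0.13 to 0.18). Counting other settings too, this call was lost in 13 alternatives and kept in 6. Gla, the alpha-galactosidase gene, had 30, 35.3 and 34.7 CPM in FK228+YF cells, 34.2, 31.1 and 33.9 CPM in FK228 cells, 26.8, 25.5 and 24.6 CPM in YF cells, and 22.3, 21.2 and 21.5 CPM in control cells. Control libraries were lowest and the FK228 groups overlapped, with Gla higher by 0.62 ± 0.08 and 0.61 ± 0.08 in FK228+YF and FK228 cells than in control cells. In YF cells Gla (0.24 ± 0.08, adjusted p = 0.0198, edgeR) lost its call without control replicate 2 (0.23), control replicate 3 (0.24) or YF replicate 1 (0.21). Hexa, a subunit gene of beta-hexosaminidase, rose by 0.39 ± 0.06 in FK228 cells. Glb1, the beta-galactosidase gene, passed the test in none of the 7 comparisons, with values from -0.03 to 0.02.

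Of the 4 lipid enzymes and saposins, 3 rose in FK228 versus control and all 4 in FK228+YF versus control, and in YF versus control none rose. Psap (chr10:60277628-60302600), the precursor of the saposins that present sphingolipids to hydrolases, had 1564, 1591 and 1619 CPM in FK228+YF cells, 1479, 1593 and 1727 CPM in FK228 cells, 1022, 865 and 974 CPM in YF cells, and 936, 974 and 929.8 CPM in control cells. The YF and control libraries overlapped, and the FK228 groups overlapped above them (0.75 ± 0.07 and 0.76 ± 0.07 against control). Lipa (chr19:34492316-34527474), the acid lipase of cholesteryl esters and triglycerides, had 246, 243 and 262 CPM in FK228+YF cells, 254, 265 and 268 CPM in FK228 cells, 128, 118 and 126 CPM in YF cells, and 127, 158 and 142 CPM in control cells. It rose by 0.82 ± 0.07 in FK228+YF cells and 0.88 ± 0.07 in FK228 cells. In YF cells it fell by 0.20 (SE 0.07, adjusted p = 0.0257, edgeR) with overlapping groups, a call lost without any 1 of YF replicates 2 and 3 (-0.17 and -0.21) and control replicates 2 and 3 (-0.12 and -0.20). Asah1, the acid ceramidase gene, had 206, 204 and 206 CPM in FK228+YF cells, 212, 209 and 205 CPM in FK228 cells, 127, 132 and 128 CPM in YF cells, and 134, 124 and 119 CPM in control cells. Its rise was 0.71 ± 0.05 with YF and 0.73 ± 0.05 without. Smpd1, the acid sphingomyelinase gene, stood at -0.08 ± 0.06 in FK228 versus control (adjusted p = 0.274, edgeR). Its rise in FK228+YF versus control (0.18 ± 0.06, adjusted p = 0.0122, edgeR) was no longer called without control replicate 1 (0.11) or FK228+YF replicate 1 (0.16).

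The lysosomal membrane proteins moved in opposite directions. Lamp1 (chr8:13159161-13175338), which encodes a major glycoprotein of the lysosomal membrane and has 4 E-boxes in its promoter, had 922, 977 and 971 CPM in FK228+YF cells, 754, 748 and 781 CPM in FK228 cells, 451, 428 and 445 CPM in YF cells, and 361, 375 and 351 CPM in control cells. The 4 groups did not overlap, and it rose by 1.40 ± 0.06, 1.07 ± 0.06 and 0.28 ± 0.06 in FK228+YF, FK228 and YF cells (edgeR adjusted p = 5.04e-15, 8.54e-13 and 0.000651). Lamp2, its paralog, which also acts in chaperone-mediated autophagy, had 766, 768 and 842 CPM in FK228+YF cells, 721, 780.5 and 808 CPM in FK228 cells, 443, 412 and 439 CPM in YF cells, and 426, 482 and 425 CPM in control cells. It rose by 0.83 ± 0.07 and 0.79 ± 0.07 in the FK228 groups and stood at -0.04 ± 0.07 in YF cells (adjusted p = 0.676). Mcoln1, a calcium channel gene with 2 E-boxes in its promoter, had 68.4, 72 and 73.3 CPM in FK228+YF cells, 65.9, 63.8 and 65.2 CPM in FK228 cells, 51.1, 46.7 and 50.4 CPM in YF cells, and 41.1, 44.3 and 43 CPM in control cells. No groups overlapped, and the rises were 0.74 ± 0.06, 0.60 ± 0.06 and 0.21 ± 0.06 in FK228+YF, FK228 and YF cells. Cd63 (chr10:128896231-128912822), a tetraspanin gene of late endosomes and exosomes, had 474, 453 and 444 CPM in FK228+YF cells, 722, 643 and 604 CPM in FK228 cells, 644, 698 and 668 CPM in YF cells, and 744, 738 and 773 CPM in control cells. The FK228+YF libraries were lowest, and the FK228 and YF libraries overlapped. Cd63 fell by 0.72 in FK228+YF cells (SE 0.07, adjusted p = 2.42e-09, edgeR) and by 0.20 in FK228 cells (SE 0.07, adjusted p = 0.0119), and the second call ended without FK228 replicate 2 (-0.17) or FK228 replicate 3 (-0.14). Per length it was the most abundant member in control cells, at 1208 ± 6.97 TPM, and averaged 714 ± 16.5 TPM in FK228+YF cells.

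**Figure D3:**
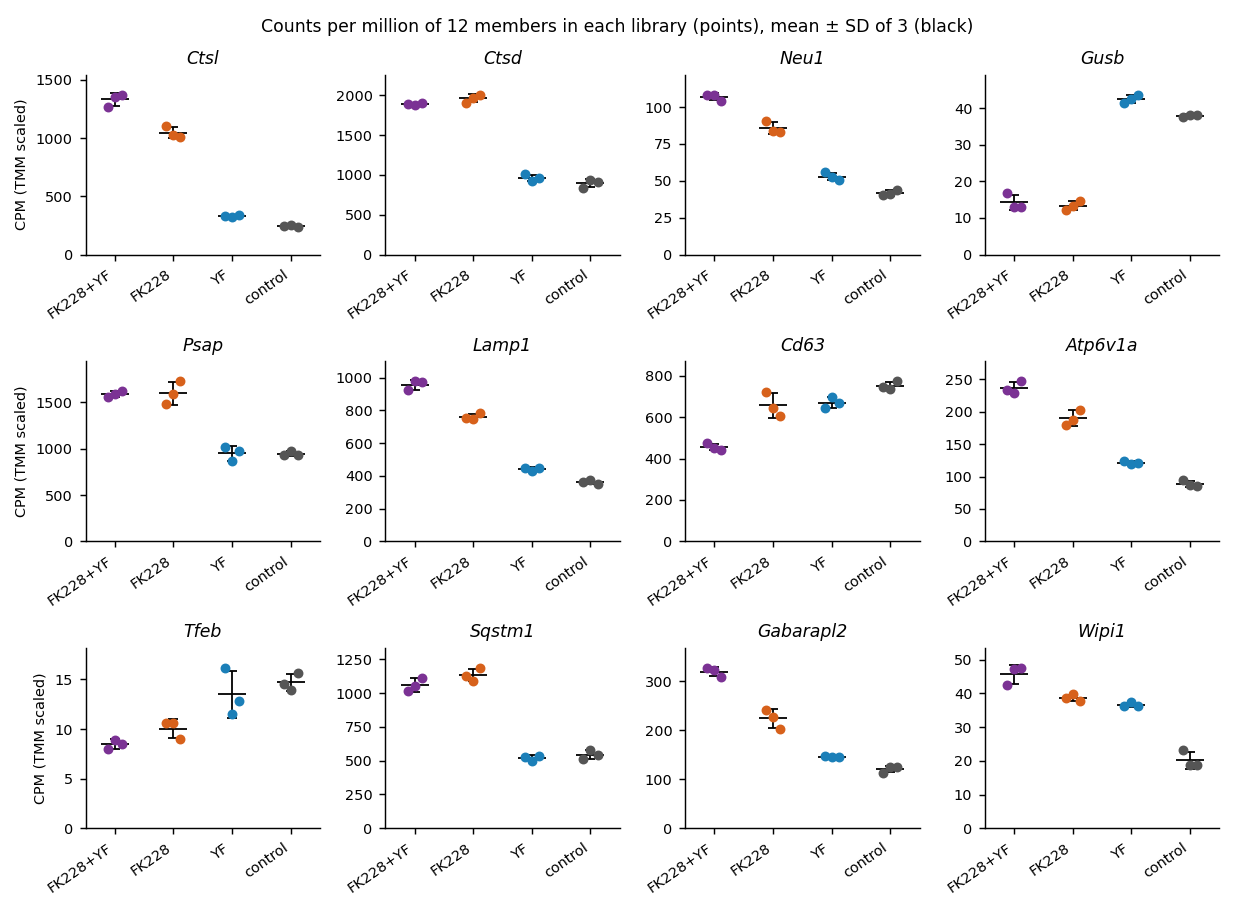
CPM (TMM scaled) of 12 members in each of 12 libraries, in FK228+YF, FK228, YF and control cells from left to right; points are libraries, and black bars give the mean ± SD of 3. Gusb, Cd63 and Tfeb are lower in FK228+YF cells than in control cells, and the other 9 are higher.

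All 4 genes of the proton pump rose in both FK228 versus control and FK228+YF versus control, and all 4 were higher in FK228+YF cells than in FK228 cells. Their summed level was 773 to 783 CPM in FK228+YF cells, 618 to 662 CPM in FK228 cells, 453 to 465 CPM in YF cells and 393 to 403 CPM in control cells, with no overlap. Atp6v1a (chr16:44085402-44139702), the catalytic subunit, had 234, 228 and 247 CPM in FK228+YF cells, 179, 187 and 203 CPM in FK228 cells, 124, 119 and 120.2 CPM in YF cells, and 94.1, 87.1 and 84.6 CPM in control cells. It rose by 1.41 ± 0.06, 1.10 ± 0.06 and 0.45 ± 0.06 in FK228+YF, FK228 and YF cells (edgeR adjusted p = 7.92e-15, 1.11e-12 and 7.12e-06). Atp6v0d1 (chr8:105524461-105566064), a subunit of the membrane sector, had 202, 203 and 195 CPM in FK228+YF cells, 164, 156 and 159 CPM in FK228 cells, 105, 95.8 and 107 CPM in YF cells, and 76.4, 90.4 and 87.1 CPM in control cells. Its 4 groups did not overlap either (1.24 ± 0.06, 0.92 ± 0.06 and 0.28 ± 0.06 in FK228+YF, FK228 and YF cells). Atp6v1h, which couples the sectors, had 121, 125 and 117 CPM in FK228+YF cells, 91.3, 86.6 and 93.7 CPM in FK228 cells, 84.6, 97.1 and 90.3 CPM in YF cells, and 84.5, 74.1 and 73.2 CPM in control cells. It rose by the same 0.23 in FK228 cells (SE 0.07) and in YF cells (SE 0.06), and by 0.65 ± 0.06 in FK228+YF cells. The YF call (adjusted p = 0.00912, edgeR) ended without control replicate 3 (0.19) or YF replicate 2 (0.18). Atp6ap1, an accessory protein of the pump, had 221, 216 and 224 CPM in FK228+YF cells, 197, 188 and 206 CPM in FK228 cells, 139, 141 and 148 CPM in YF cells, and 145, 152 and 148 CPM in control cells, and rose by 0.57 ± 0.05 and 0.41 ± 0.05 in the FK228 groups. Its rise in FK228+YF versus FK228 cells (0.16 ± 0.05, adjusted p = 0.0123, edgeR) was no longer called without FK228 replicate 2 (0.11).

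The 3 factors of the TFEB family differed in direction. Tfeb (chr17:47737037-47792416) had 8.01, 8.93 and 8.52 CPM in FK228+YF cells, 10.6, 10.6 and 8.97 CPM in FK228 cells, 16.1, 11.5 and 12.9 CPM in YF cells, and 14.5, 13.9 and 15.6 CPM in control cells. All 6 libraries with FK228 were below all 6 without it. Tfeb fell by 0.79 on the log2 scale in FK228+YF cells (SE 0.12, adjusted p = 3.26e-06, edgeR) and by 0.55 in FK228 cells (SE 0.12, adjusted p = 0.000288), and stood at -0.12 ± 0.11 in YF cells (adjusted p = 0.43). Tfe3 (chrX:7762530-7775202) had 138, 138 and 145 CPM in FK228+YF cells, 131, 137 and 143 CPM in FK228 cells, 114, 99.1 and 108 CPM in YF cells, and 99.2, 113 and 110.1 CPM in control cells. It rose by 0.39 ± 0.06 in FK228+YF cells and 0.35 ± 0.06 in FK228 cells (edgeR adjusted p = 8.19e-06 and 4.16e-05). Mitf (chr6:97807002-98021360) had 12.8, 15.2 and 12.9 CPM in FK228+YF cells, 9.63, 11.2 and 11 CPM in FK228 cells, 11.2, 10.6 and 11.3 CPM in YF cells, and 7.94, 8.36 and 8.32 CPM in control cells. The control libraries were lowest, and FK228 and YF libraries overlapped. Mitf rose by 0.73 ± 0.10, 0.37 ± 0.10 and 0.43 ± 0.10 in FK228+YF, FK228 and YF cells (edgeR adjusted p = 1.28e-06, 0.00329 and 0.003). Per length, Tfe3 was the most abundant of the 3 in every group, at 53.8 ± 1.61 TPM in FK228+YF cells and 42.5 ± 2.97 TPM in control cells, where Tfeb had 8.32 ± 0.16 TPM and Mitf 2.09 ± 0.085 TPM. These values are of mRNA, whereas the factors are known to be controlled largely by phosphorylation and entry into the nucleus.

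Among the LC3 and GABARAP genes and the receptor Sqstm1, 4 of 6 rose in FK228 versus control and 5 in FK228+YF versus control, and none fell in either. Sqstm1 (chr11:50200152-50210820), which encodes p62, a receptor that links ubiquitinated cargo to LC3, had 1013, 1054 and 1115 CPM in FK228+YF cells, 1129, 1092 and 1184 CPM in FK228 cells, 529, 501 and 538 CPM in YF cells, and 509, 578 and 545 CPM in control cells. It rose by 0.96 ± 0.07 in FK228+YF cells and 1.06 ± 0.07 in FK228 cells (edgeR adjusted p = 1.51e-11 and 7.69e-12) and stood at -0.06 ± 0.06 in YF cells. Map1lc3b (chr8:121590438-121598760), the LC3 gene most used as an autophagosome marker, had 440.3, 444 and 447 CPM in FK228+YF cells, 384, 367 and 357 CPM in FK228 cells, 211, 203 and 213 CPM in YF cells, and 182, 208 and 191 CPM in control cells. It rose by 1.20 ± 0.06 and 0.93 ± 0.06 in the FK228 groups, and its paralog Map1lc3a passed against control only in FK228+YF cells (0.37 ± 0.08, adjusted p = 0.000251, edgeR). Gabarapl1 (chr6:129533192-129542331) had 132, 133 and 129 CPM in FK228+YF cells, 126, 136 and 136 CPM in FK228 cells, 84.5, 79.2 and 80.4 CPM in YF cells, and 63.7, 69.1 and 63.4 CPM in control cells. It rose by 1.01 ± 0.06, 1.02 ± 0.06 and 0.32 ± 0.06 in FK228+YF, FK228 and YF cells. Gabarapl2 (chr8:111940703-111952915) had 326, 323 and 309 CPM in FK228+YF cells, 242, 228 and 203 CPM in FK228 cells, 148, 145 and 145 CPM in YF cells, and 113, 125 and 125 CPM in control cells. The 4 groups did not overlap, with rises of 1.40 ± 0.06, 0.89 ± 0.06 and 0.27 ± 0.06 in FK228+YF, FK228 and YF cells. Gabarap, the most abundant of these genes per length in control cells at 836 ± 81.1 TPM, had 696, 665 and 686 CPM in FK228+YF cells, 862, 746 and 688 CPM in FK228 cells, 584, 586 and 575 CPM in YF cells, and 607, 735 and 697 CPM in control cells. Its fall in YF cells, by 0.22 (SE 0.08, adjusted p = 0.0298, edgeR), was no longer called without any 1 of control replicates 2 and 3 and YF replicates 1, 2 and 3 (-0.23 to -0.16).

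The genes of autophagy initiation and conjugation had the lowest median log2 fold change of any role in FK228 versus control, at -0.07, and their summed level in FK228 cells was 1.06 of that in control cells. Of 6, 2 rose and 1 fell in FK228 versus control, 5 rose in FK228+YF versus control and 2 rose in YF versus control. Wipi1 (chr11:109573521-109611389), which binds the lipid PI3P on the forming vesicle, had 42.4, 47.1 and 47.4 CPM in FK228+YF cells, 38.5, 39.7 and 37.7 CPM in FK228 cells, 36.2, 37.3 and 36.1 CPM in YF cells, and 23.1, 18.6 and 18.7 CPM in control cells. All 9 libraries given FK228 or YF were above the control libraries. Wipi1 rose by 1.18 ± 0.08, 0.94 ± 0.08 and 0.86 ± 0.08 in FK228+YF, FK228 and YF cells (edgeR adjusted p = 1.29e-11, 1.26e-09 and 5.32e-08), the largest rise of any member in YF cells. Atg7, the E1-like enzyme of LC3 conjugation, had 72, 71.8 and 74.9 CPM in FK228+YF cells, 65.3, 65.7 and 69.8 CPM in FK228 cells, 55.6, 51.9 and 53.6 CPM in YF cells, and 41.3, 47.1 and 45.3 CPM in control cells. It rose in FK228+YF, FK228 and YF cells by 0.71 ± 0.06, 0.59 ± 0.06 and 0.27 ± 0.06. Becn1 (chr11:101288258-101302286), the beclin 1 subunit of the PI3-kinase complex, had 128, 129 and 132 CPM in FK228+YF cells, 104, 103 and 104 CPM in FK228 cells, 116, 108 and 115 CPM in YF cells, and 119, 109.5 and 112 CPM in control cells. It rose by 0.19 ± 0.05 in FK228+YF cells (adjusted p = 0.00213, edgeR). Its fall by 0.13 in FK228 cells (SE 0.05, adjusted p = 0.0323, edgeR) was no longer called without control replicate 1, FK228 replicate 1, FK228 replicate 2 or FK228+YF replicate 2 (-0.11 to -0.10), nor by DESeq2 (-0.10). Becn1 shares 3104 exon bases with Cntd1 on the other strand. Ulk1, the kinase that starts autophagy, had 81.6, 85.8 and 87.8 CPM in FK228+YF cells, 60.2, 58.9 and 68.7 CPM in FK228 cells, 77.4, 74.1 and 75.4 CPM in YF cells, and 64.5, 69.2 and 70.3 CPM in control cells. Among the comparisons with control it passed only in FK228+YF cells (0.32 ± 0.06), and stood at -0.12 ± 0.06 in FK228 cells and 0.15 ± 0.06 in YF cells (edgeR adjusted p = 0.099 and 0.0639). Atg5, a partner in the LC3 ligase, passed against control only in FK228+YF cells (0.15 ± 0.07, adjusted p = 0.0455, edgeR), a call that ended without any 1 library other than FK228 replicates 1 and 2 (0.12 to 0.17).

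**Figure D4:**
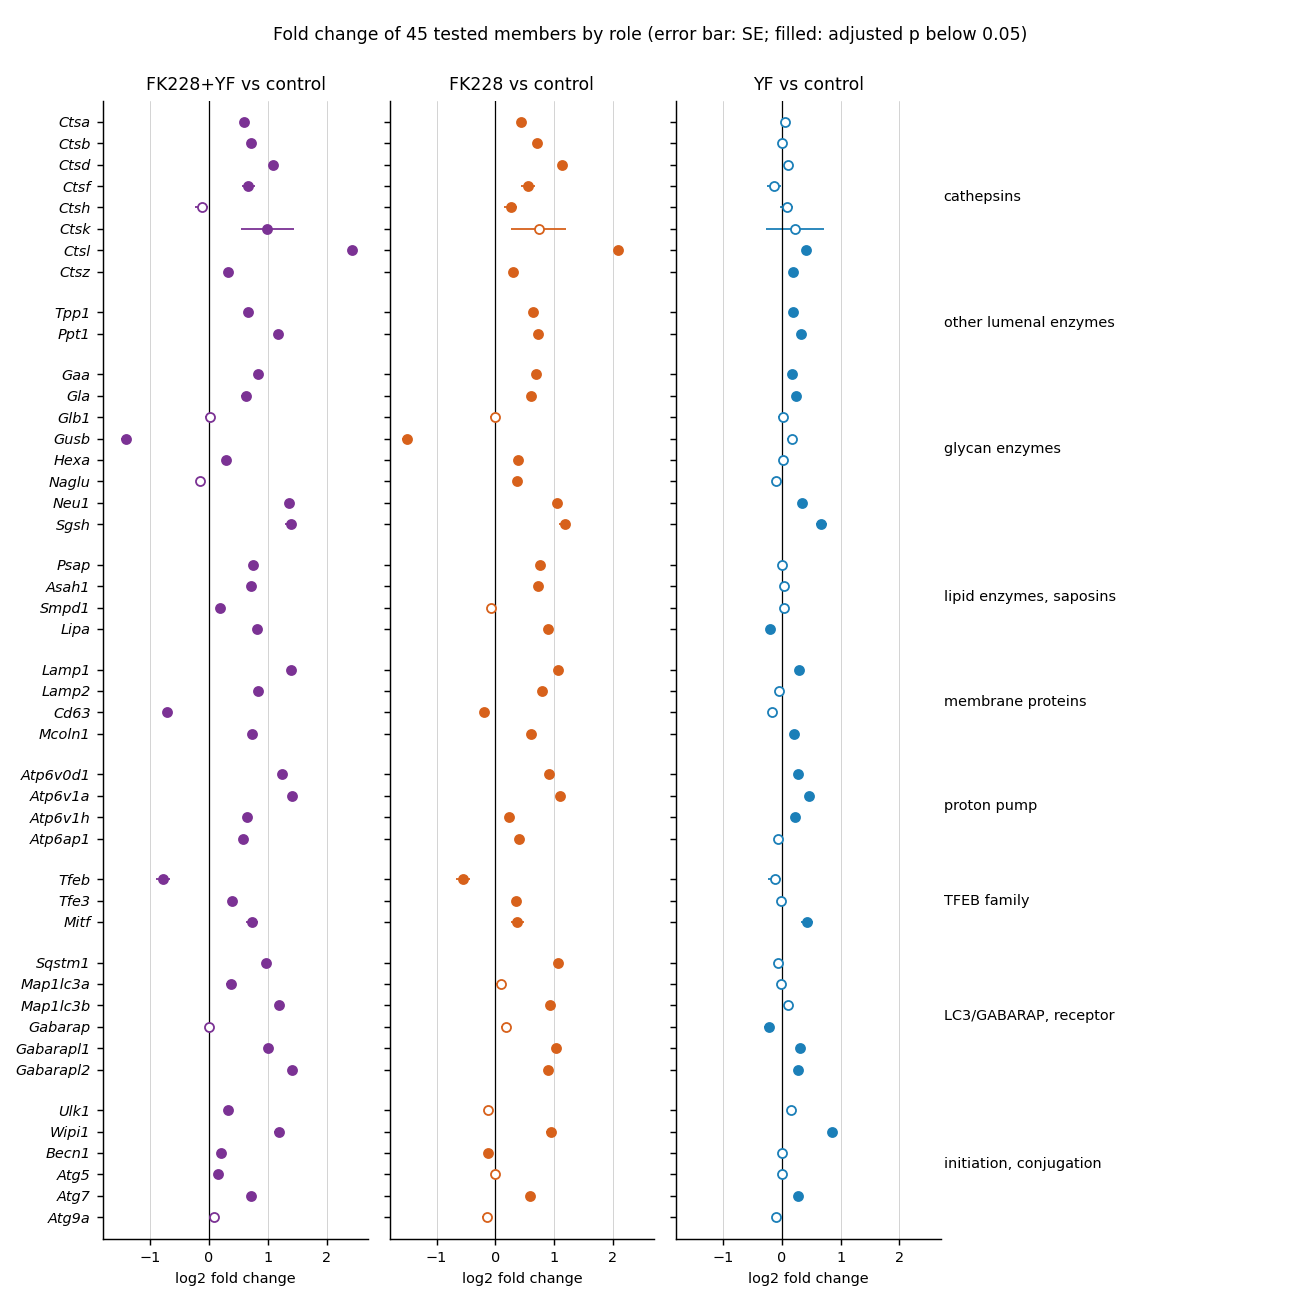
Log2 fold change of the 45 tested members against control in FK228+YF, FK228 and YF cells (panels from left to right), by role; bars are SE, and filled points have an adjusted p below 0.05. Ctsl is farthest to the right in both FK228 panels and Gusb farthest to the left, and all YF values lie below 1.

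FK228+YF versus FK228 asked what YF adds in cells given the inhibitor. Here 20 members rose and 3 fell, beside 26.6% and 26.3% of all tested genes, with a median of 0.13. The rises were led by Gabarapl2 (0.51 ± 0.06, adjusted p = 7.22e-07, edgeR), Ppt1 (0.45 ± 0.06), Ulk1 (0.44 ± 0.06) and Atp6v1h (0.42 ± 0.06). Cd63 (-0.52 ± 0.07), Naglu (-0.52 ± 0.07) and Ctsh (-0.39 ± 0.11) were lower. The count of rises was 13 without FK228+YF replicate 2. FK228+YF versus YF asked what FK228 adds in YF cells, where 36 members rose and 3 fell, beside 34.7% and 35.9% of all tested genes, with a median of 0.53. Hdac1 was not equal in these groups, averaging 798 CPM in FK228+YF cells and 402 CPM in YF cells. Effects of FK228 and of this higher Hdac1 level cannot be told apart in this comparison. FK228 versus control and FK228+YF versus YF share no library. Of the 33 members that rose in FK228 versus control and the 36 in FK228+YF versus YF, 30 rose in both (90.9% and 83.3%), and Gusb, Tfeb and Cd63 fell in both. Becn1 fell in FK228 versus control, a call lost in 9 alternatives and kept in 10, and rose in FK228+YF versus YF. Over all tested genes, 3449 rose in both (77.7% and 74.4%). YF versus control and FK228+YF versus FK228 share no library either, and 11 members rose in both (61.1% of 18 and 55% of 20), beside 1418 of all tested genes (59% and 40%).

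FK228 cells were also set directly against YF cells. There, 29 members rose and 4 fell, beside 27.8% and 33.3% of all tested genes, with a median of 0.41. The largest differences were in Ctsl (1.67 ± 0.06), Sqstm1 (1.12 ± 0.07), Lipa (1.09 ± 0.07) and Ctsd (1.03 ± 0.06), all higher in FK228 cells, and in Gusb (-1.67 ± 0.09). Tfeb was also lower (-0.42 ± 0.12, adjusted p = 0.0036, edgeR). So was Becn1, whose call was lost in 13 alternatives and kept in 6. Wipi1, with 0.08 ± 0.08 (adjusted p = 0.377), and Mitf, with -0.06 ± 0.10 (adjusted p = 0.654), did not pass.

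The interaction compares the FK228 effect in YF cells with that in cells without YF. Here too, the higher Hdac1 level in FK228+YF than in YF cells cannot be told apart from FK228. The interaction was called in 11 of 45 members: 5 had a larger log2 fold change with YF and 6 a smaller one. These shares were near the 11.1% and 15.3% of all tested genes, and the member median was -0.02. Wipi1 had the largest interaction, at -0.62 ± 0.11 (adjusted p = 0.000299, edgeR): FK228 changed it by 0.32 ± 0.08 with YF and by 0.94 ± 0.08 without. Gabarapl1 changed by 0.69 ± 0.06 with YF and 1.02 ± 0.06 without (interaction -0.33 ± 0.08), and Sgsh by 0.72 ± 0.09 with YF and 1.17 ± 0.09 without (interaction -0.45 ± 0.13). Naglu, the glucosaminidase of heparan sulfate, had 33.3, 34.3 and 36.3 CPM in FK228+YF cells, 51.9, 48.1 and 48.8 CPM in FK228 cells, 38.5, 32.7 and 36.7 CPM in YF cells, and 35.1, 39.3 and 40.7 CPM in control cells. The FK228 cells alone stood apart, and its interaction was -0.42 ± 0.10 (adjusted p = 0.00461, edgeR). Ctsh, the gene of cathepsin H, had 32.9, 30.5 and 26.8 CPM in FK228+YF cells, 36.9, 43 and 38 CPM in FK228 cells, 39.7, 31.1 and 33.7 CPM in YF cells, and 29.1, 38.8 and 30.6 CPM in control cells, and these groups overlapped except FK228+YF with FK228. Cd63 had an interaction of -0.36 ± 0.09, with a fall by 0.55 in the presence of YF (SE 0.07). Becn1 had 0.33 ± 0.07, with 0.20 ± 0.05 in the presence of YF and -0.13 ± 0.05 in its absence. Atg9a, which encodes the membrane protein of the autophagy seed vesicle, had 51.7, 54.9 and 55.6 CPM in FK228+YF cells, 44.4, 44.5 and 49.5 CPM in FK228 cells, 51.8, 41.9 and 49.9 CPM in YF cells, and 48.7, 51.9 and 53 CPM in control cells. Its exons share 1832 bases with Gm29253 on the same strand, which has no counts of its own. The interaction of Atg9a (0.33 ± 0.10) lost its call without any 1 of control replicate 3, FK228 replicates 1 and 2, YF replicate 2 and FK228+YF replicates 2 and 3 (0.24 to 0.31). That of Ulk1 (0.29 ± 0.09) did so without control replicate 3, FK228 replicate 2 or FK228+YF replicate 3 (0.24 to 0.26). That of Ctsh (-0.47 ± 0.16) did so without any 1 of control replicates 1 and 3, FK228 replicates 2 and 3, YF replicates 1 and 3 and FK228+YF replicates 2 and 3 (-0.50 to -0.37). That of Atp6ap1 (0.22 ± 0.07) did so without any 1 library other than control replicate 1, FK228 replicates 1 and 3 and YF replicate 3 (0.18 to 0.23), and that of Gabarapl2 (0.24 ± 0.09) without any 1 library other than control replicate 1 and FK228 replicate 1 (0.17 to 0.27). The 5 larger effects were 8 without control replicate 1, 1 without control replicate 3 or FK228 replicate 2, 2 without YF replicate 2, FK228+YF replicate 2 or FK228+YF replicate 3, and 3 without control replicate 2, YF replicate 1 or FK228+YF replicate 1.

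**Figure D5:**
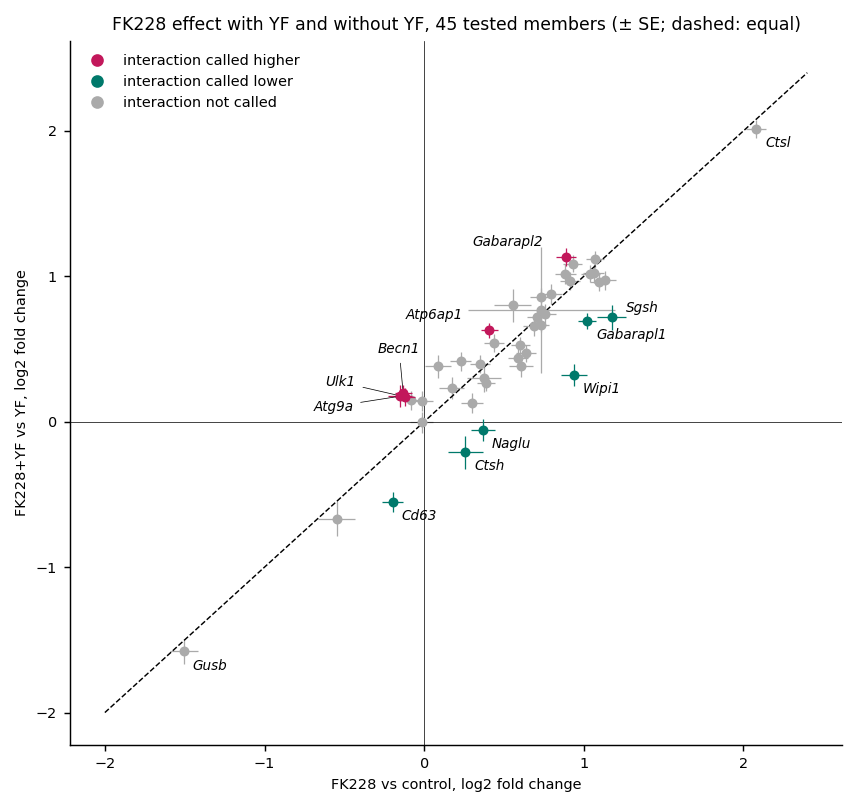
Log2 fold change of FK228+YF versus YF (vertical) against FK228 versus control (horizontal) for the 45 tested members, with SE bars. The dashed line marks equal effects. By the interaction test, pink marks a larger and green a smaller signed log2 fold change with YF, so Cd63, which fell more with YF, is green. Ctsl and Gusb lie near the line at either end, and Wipi1 lies well below it.

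Another 139 genes of lysosome and autophagy that are not members, also chosen with earlier results known, were counted beside them, and 133 were tested. Of these, 75 rose and 27 fell in FK228 versus control, 84 rose and 26 fell in FK228+YF versus control, and 43 rose and 15 fell in YF versus control, with medians of 0.26, 0.40 and 0.08. Over all tested genes, 33.2% rose and 35.5% fell in FK228 versus control, 38.8% and 38.6% in FK228+YF versus control, and 18% and 14.6% in YF versus control. In FK228 versus control, 18 of 33 other hydrolases and cofactors rose and 8 fell. Dpp7, a dipeptidyl peptidase gene, averaged 136 CPM in FK228+YF cells, 96.1 CPM in FK228 cells, 25.4 CPM in YF cells and 19.3 CPM in control cells. Hyal1, a hyaluronidase gene, averaged 50.5, 36.9, 23.9 and 11.3 CPM in the same 4 groups, and Arsg, a sulfatase gene, 12.3, 10.9, 7.36 and 2.35 CPM. All 3 genes were higher than in control cells in FK228+YF, FK228 and YF cells by edgeR's test, with log2 fold changes of 0.40 ± 0.07 to 2.82 ± 0.06. Of 21 other membrane proteins, 10 rose and 3 fell. Ostm1, the partner of a lysosomal chloride exchanger, averaged 62.3, 30.7, 31.4 and 17.8 CPM, and the sorting receptor gene Sort1 83.4, 40.2, 44.8 and 25.7 CPM. The cholesterol exporter Npc1 rose by 0.79 ± 0.07 in FK228 cells.

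All 16 tested genes of other V-ATPase subunits passed the test in FK228 versus control, 11 higher and 5 lower. Atp6v0a1, a subunit of the membrane sector, averaged 167 CPM in FK228+YF cells, 112 CPM in FK228 cells, 62.8 CPM in YF cells and 43.4 CPM in control cells, and rose by 1.94 ± 0.07, 1.37 ± 0.07 and 0.53 ± 0.07 against control. Atp6v1b2 rose by 0.91 ± 0.05 in FK228 cells, and Atp6ap2 by 0.28 ± 0.06 in YF cells. The low-level Atp6v1g2 averaged 1.7 CPM in FK228+YF cells and 4.06 CPM in control cells, and fell by 1.26 (SE 0.22). Of 38 other autophagy genes, 22 rose and 7 fell in FK228 versus control. Pik3c3, the catalytic subunit of the PI3-kinase complex that holds Becn1, fell by 1.04 in FK228 cells (SE 0.08, adjusted p = 1.28e-10, edgeR), and averaged 39.7, 40.4, 66.2 and 82.9 CPM in FK228+YF, FK228, YF and control cells. Vamp8, a SNARE of autophagosome fusion, averaged 71.5, 108, 155 and 196 CPM in these groups, and Atg12, a ubiquitin-like conjugation protein, 144, 69.3, 48.8 and 37.6 CPM. Atg3, the E2-like enzyme of LC3 conjugation, rose by 0.71 ± 0.06 in YF cells, Epg5, a tether of fusion, by 0.57 ± 0.12 in YF cells, and Atg10 rose by 1.03 ± 0.11 in FK228 cells. Of 25 genes of mTORC1 and Rag signalling, which senses amino acids at the lysosome, 14 rose and 4 fell. Rraga, a Rag GTPase gene, averaged 143, 107, 57.6 and 48.1 CPM, and rose against control by 1.57 ± 0.05, 1.15 ± 0.05 and 0.26 ± 0.05. Lamtor2, a subunit of its anchor, rose by 1.06 ± 0.06 in FK228+YF cells, the stress-induced Sesn3 by 0.91 ± 0.10 in FK228 cells and Sesn2 by 0.25 ± 0.09 in YF cells (adjusted p = 0.0492, edgeR).

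Lysosomal genes are also markers of phagocytes, so 10 macrophage and leukocyte genes were measured. Their summed level was 61.6 to 71.9 CPM in FK228+YF cells, 48.4 to 53.3 CPM in FK228 cells, 108 to 131 CPM in YF cells and 136 to 183 CPM in control cells. Single genes went in different directions. Cd14 averaged 10.4 CPM in FK228+YF cells, 21.2 CPM in FK228 cells, 111 CPM in YF cells and 154 CPM in control cells, and fell by 3.89, 2.86 and 0.48 on the log2 scale against control in the first 3 groups. Cd68, which encodes a lysosomal membrane protein, averaged 49.8 CPM in FK228+YF cells, 22.8 CPM in FK228 cells, 6.84 CPM in YF cells and 2.53 CPM in control cells, the order seen in many members. Lyz2, the lysozyme gene, averaged 3.28 CPM in FK228+YF cells, 1.97 CPM in FK228 cells, 2.36 CPM in YF cells and 0.323 CPM in control cells, and rose in all 3 groups against control. Itgam averaged 0.993, 1.96, 0.503 and 0.438 CPM in these 4 groups and rose in both FK228 groups, and Csf1r averaged 0.738, 1.09, 0.310 and 0.361 CPM and rose in FK228 cells. Ptprc averaged at most 1.51 CPM in any group and passed the test against control in none. It was lower in FK228+YF than in FK228 cells (-1.15 ± 0.41, adjusted p = 0.0241, edgeR), with overlapping groups. Adgre1, Aif1, Clec4f and Tyrobp averaged at most 0.180 CPM in any group and were not tested. In all, 3 rose and 1 fell against control in FK228+YF cells, 4 rose and 1 fell in FK228 cells, and 2 rose and 1 fell in YF cells. Over all tested genes, 38.8% rose and 38.6% fell in FK228+YF cells, 33.2% and 35.5% in FK228 cells, and 18% and 14.6% in YF cells. The 8 fibroblast and stellate genes summed to 32.3 to 40.2 CPM in FK228+YF cells, 31.5 to 33.0 CPM in FK228 cells, 12.7 to 18 CPM in YF cells and 7.67 to 10.5 CPM in control cells, of which 3, 2 and 1 genes rose in FK228+YF, FK228 and YF cells and none fell. Of these genes, Col1a2, Col3a1, Lrat, Pdgfrb and Dcn were not tested, so only Des, Col1a1 and Acta2 could be called. Des, the desmin gene, made up most of this sum, averaging 31.4, 26.4 and 12.7 CPM in FK228+YF, FK228 and YF cells and 7.43 CPM in control cells. The 5 measured cholangiocyte genes summed to 4303 to 5125 CPM in FK228+YF cells, 5424 to 5814 CPM in FK228 cells, 5356 to 5577 CPM in YF cells and 4870 to 4943 CPM in control cells, nearly all of it from Spp1. Krt19, a keratin gene, averaged 107 CPM in FK228+YF cells, 173 CPM in FK228 cells, 284 CPM in YF cells and 607 CPM in control cells. Krt19, Krt7 and Sox9 fell against control in FK228+YF, FK228 and YF cells. The fall of Sox9 in YF cells was near the threshold (adjusted p = 0.045, edgeR), with overlapping groups. Spp1 instead rose in FK228 cells (0.36 ± 0.07) and YF cells (0.29 ± 0.07), and Cftr passed against control in no group. The part of these markers in the results on members was not tested.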

How the data were processed

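Total RNA extracted with TRIzol was sequenced in paired reads on a BGISEQ instrument, per the labels' protocols. Build GRCm38.p6 and, with no role given, RSEM 1.2.12, DESeq2 1.4.5, HISAT2 2.0.4 and Bowtie2 2.2.5 are listed in the submitters' processing notes. The deposited tables hold expected counts (16.6% of values are not whole) and TPM for 19037 genes, per the file headers. Whether strand was used in counting is not stated.

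Expected counts were rounded, and 13346 genes passing edgeR's filterByExpr were fitted with edgeR 4.0.16 (TMM, robust quasi-likelihood, 12 libraries, 1 term per group, R 4.3.3), with Benjamini-Hochberg adjustment over all of them and calls at 0.05. CPM are TMM scaled, TPM serve only to compare genes, and SE is the log2 fold change over the root of F. Alternatives were other scaling, filters and samples, DESeq2 1.42.0, limma-voom (limma 3.58.1), a replicate block and leaving out each library. Totals of 23664446 to 26122998 counts per library limit the genes of low level, such as Ctsk.

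Members and lists were chosen with earlier results of these data known. Values are given library by library for the TFEB family and, per role and comparison, for up to 3 called members with the largest changes at a mean of 5 CPM or more in FK228 versus control, YF versus control and the interaction. Of the other pathway lists, up to 2 called genes per list and comparison with control at 1 CPM or more are named. Atg5, Ctsa, Ctsf, Ctsk, Ctss, Gaa, Hexa, Glb1, Smpd1 and Map1lc3a are named beside these, and Ulk1 is given library by library outside that rule, chosen after its values were seen.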

Additional observations from a re-analysis of the deposited data

Results flagged for a closer look

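The FK228 effect differed between cells with and without YF in 11 members, by the interaction term of edgeR's quasi-likelihood test. It was smaller, on the signed log2 scale, with YF for Wipi1 (-0.62 ± 0.11, adjusted p = 0.000299), Ctsh (-0.47 ± 0.16, adjusted p = 0.0372), Sgsh (-0.45 ± 0.13, adjusted p = 0.0108), Naglu (-0.42 ± 0.10, adjusted p = 0.00461), Cd63 (-0.36 ± 0.09, adjusted p = 0.00743) and Gabarapl1 (-0.33 ± 0.08, adjusted p = 0.00372). It was larger with YF for Becn1 (0.33 ± 0.07, adjusted p = 0.0025), Atg9a (0.33 ± 0.10, adjusted p = 0.0253), Ulk1 (0.29 ± 0.09, adjusted p = 0.0197), Gabarapl2 (0.24 ± 0.09, adjusted p = 0.0467) and Atp6ap1 (0.22 ± 0.07, adjusted p = 0.0325). The calls of Wipi1, Sgsh, Naglu, Cd63, Gabarapl1 and Becn1 held when any 1 of the 12 libraries was left out. Of 45 tested members, 5 thus had a larger and 6 a smaller effect with YF on this scale. These shares were near those of all tested genes, at 11.1% and 15.3%.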

How the results depend on the processing

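No call of a member changed direction under the alternatives run. Over the 7 comparisons, 2082 of 2150 values kept their side of the threshold under other settings, 42 lost a call and 26 gained one, and leaving out 1 library gave 3597, 151 and 32 of 3780. The members lower in FK228 versus control numbered 2 when only these groups were fitted, and those with a larger FK228 effect with YF numbered 3 with no count filter. With 1 library left out, members higher and lower numbered 34 to 36 and 3 to 4 in FK228+YF versus control, 32 to 34 and 2 to 6 in FK228 versus control, 13 to 19 and 0 to 3 in YF versus control, 13 to 22 and 3 to 4 in FK228+YF versus FK228, 33 to 37 and 3 to 4 in FK228+YF versus YF, 29 to 30 and 3 to 4 in FK228 versus YF, and 1 to 8 and 5 to 6 in the interaction. The fall of Becn1 in FK228 versus control was also not called with RLE scaling or with a minimum of 5 CPM (both -0.10). In all, that call was lost in 9 alternatives and kept in 10. Over settings and left-out libraries together, the call of Ctsz in YF versus control was lost in 10 alternatives and kept in 9. The interaction of Gabarapl2 was lost in 12 and kept in 6. The labels do not say what the replicate numbers mark. Of 18 correlations between the deviations of libraries with the same number, 2 were over 0.1 (range -0.47 to 0.28). With 3 libraries per group, these values cannot settle whether the numbers pair the libraries. With a replicate block, 36 members were higher and 3 lower in FK228+YF versus control, 33 and 4 in FK228 versus control, 16 and 2 in YF versus control, 19 and 3 in FK228+YF versus FK228, 35 and 3 in FK228+YF versus YF, 29 and 3 in FK228 versus YF, and 4 and 6 in the interaction. The cause of these shifts was not tested. Members at a few counts per library, such as Ctsk, are limited by depth.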
